A study of Mus musculus with 8 samples.

Results

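The mRNAs of the proneural basic helix-loop-helix (bHLH) factors were followed while mouse embryonic stem (ES) cells became neural precursors. Their signal in RNA recovered with Argonaute was compared with that in total RNA. The 9 genes were Neurog1, Neurog2, Neurod1, Neurod2, Neurod4, Neurod6, Atoh1, Olig2 and Hes6. They were taken by name, as every non-control probe whose gene name was one of these symbols, which gave 10 of the 55681 probes and 9 of the 36163 gene names of the array. Neurod1 had 2 probes and each of the other genes had 1.

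E14Tg2A, a feeder-free ES cell line of 129/Ola mice, was kept in serum with leukemia inhibitory factor (LIF) and then neuralised in a chemically defined minimal medium. The 4 stages were ES cells in LIF and serum (day 0), floating epiblast-like aggregates (ELA, day 2), adherent neural progenitors (NPC, day 6) and neural precursors plated once more without B27 supplement (NPC/Neu, day 10). At each stage 1 array read total RNA and 1 array read Ago-RNA, the RNA precipitated from a cytosolic extract with an antibody to all Argonaute (Ago) proteins. Every array carried RNA pooled from 3 independent experiments, so that 8 arrays covered the 8 conditions and none had a replicate. All stages shared 1 unmodified cell line, and all 8 arrays lay on 1 slide.

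Proneural bHLH proteins are transcription factors that commit neural progenitors to a neuronal fate. They pair with ubiquitous E proteins and bind the E-box, a short DNA motif, and Id proteins hold them back by capturing the E protein. Notch signalling restrains them through Hes and Hey repressors, while they themselves switch on Notch ligands in the cell that differentiates. In development the neurogenins act first and the NeuroD factors later, whereas Atoh1 is used in dorsal hindbrain and spinal cord and Olig2 in ventral progenitors. Hes6 is an unusual Hes protein that favours neuronal differentiation. Argonaute carries microRNAs to their target mRNAs, so Ago-RNA over total RNA is read as the hold of the silencing machinery on an mRNA relative to its abundance. Both arrays of a stage were brought to the same signal distribution, so the ratio is relative to other mRNAs and not a fraction of molecules bound.

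Levels are given as normalized log2 fluorescence signal. Enrichment (E) is log2 Ago-RNA minus log2 total RNA at a stage, and the change in enrichment (dE) is E at the later stage minus E at the earlier one. A change in total RNA or an E of 1 on the log2 scale was used to count genes, and a dE of 1.5 in size. With a single array per condition there is no test and no p-value, and levels of different genes come from different probes and were not ranked against each other. The only error available is between spots of 1 array pair. Over the 399 probes printed 10 times it was an SD of 0.13 to 0.17 (log2) for a change in total RNA, 0.13 to 0.15 for E and 0.17 to 0.20 for dE. Among the 191 of these probes that were dim (mean log2 signal under 9) the corresponding SDs were 0.16 to 0.23, 0.17 to 0.20 and 0.24 to 0.28. These figures cover spot noise alone and not the spread between cultures.

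Between 53.45% and 61.22% of spots were well above background on each array, and no spot was saturated. Most stage marker lists moved, as sums, as the labels name the stages. The summed linear signal of 5 pluripotency genes was 152740.7, 42430.3, 3890.4 and 7535.5 from ES to NPC/Neu, with Pou5f1 at 15.21, 14.76, 7.98 and 8.31 over the 4 stages. The sum of the primed epiblast list was highest in ELA, at 76998.8, 142151.8, 64584.3 and 73324.2, and was near its ES level in NPC/Neu. Within that list Otx2 stayed between 15.53 and 16.06. Fgf5 fell from 14.78 in ELA to 7.48 in NPC and 7.89 in NPC/Neu, and Pou3f1 from 15.47 to 11.52 and 13.09. The sum over 4 neural progenitor genes was 8800.2, 16436.1, 76975.4 and 227134.5, and so was highest in NPC/Neu and not in NPC. The 5 measured neuron genes gave 41424.1, 38220.9, 69198.2 and 229790.1, so the neuron list was highest in NPC/Neu. Within it Stmn2 already read 14.44 and Snap25 13.41 in ES, with 15.73 and 15.01 in NPC/Neu. Summed signals of the mesendoderm list ran from 667.4 in ES to 2114.4 in NPC/Neu. Foxa2, also a floor plate gene, read 6.76, 8.01, 9.55 and 10.10 and T read 7.19, 7.19, 9.73 and 9.31, while Gata6 was not well above background on any total RNA array. The part of these cells in the signal of the 9 genes was not tested. In such bulk RNA, more cells that express a gene and more RNA per cell cannot be told apart.

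All 10 probes were identical to the mouse genome (mm9, the build of the array annotation) at their annotated positions, and none occurred in another protein-coding gene of GENCODE. Of these probes 8 lay in 3′ untranslated regions and 2, that of Neurog1 and 1 of Neurod1, in coding sequence. Their distance to the annotated transcript end ran from 7 bases (Atoh1) to 1631 bases (the coding probe of Neurod1).

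**Figure D1:**
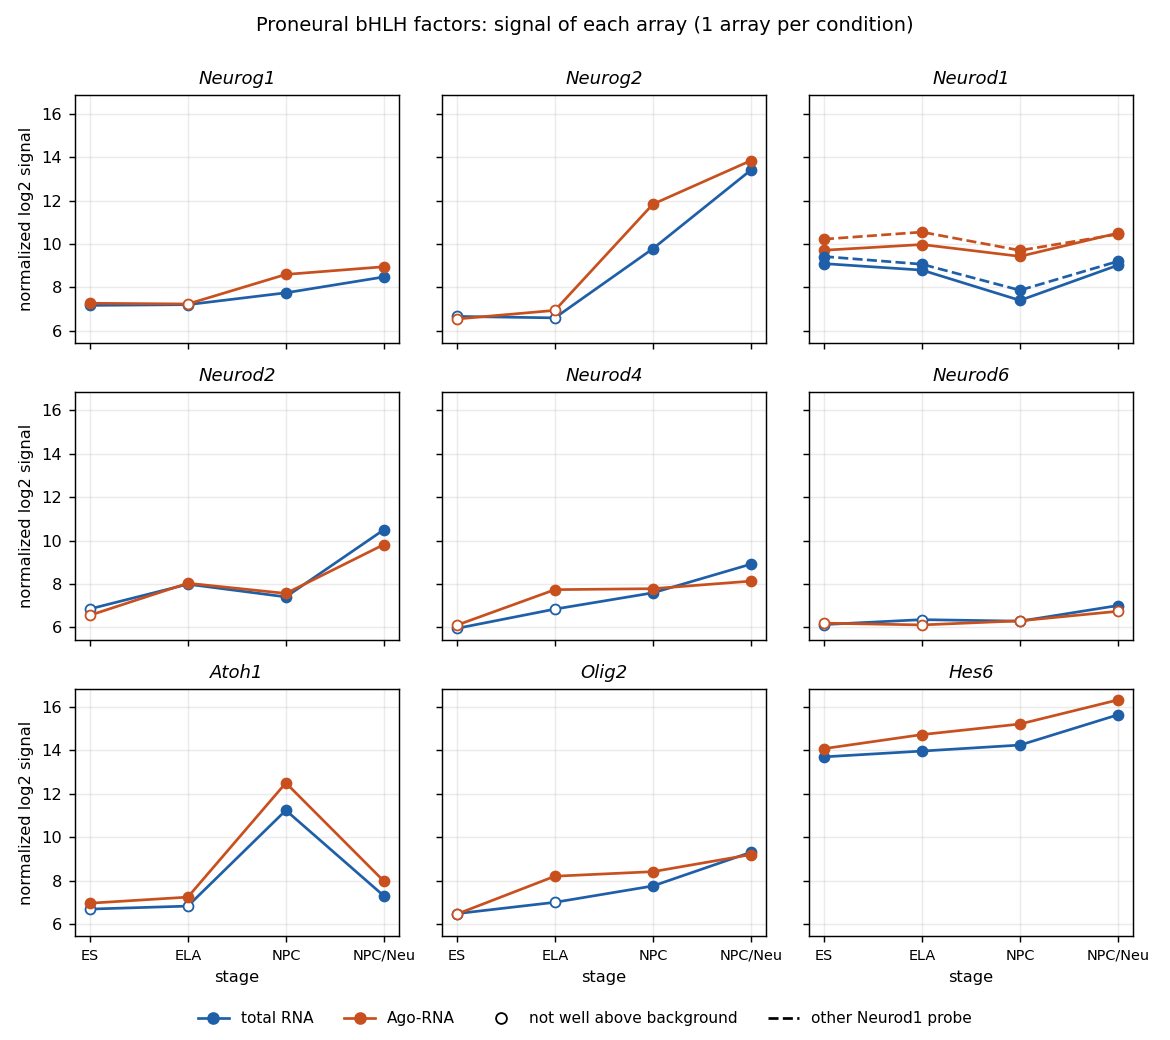
Normalized log2 signal (y axis) of each proneural bHLH gene at the 4 stages (x axis), 1 array per point, with total RNA in blue and Ago-RNA in orange and open circles where the probe was not well above background. Neurog2 climbed to 13.41 in NPC/Neu total RNA, Atoh1 peaked in NPC at 11.24, and Hes6 lay above 13 on every array.

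Neurog2, the neurogenin that opens neurogenesis in dorsal telencephalon and other regions, showed the widest rise. Its gene lies on the plus strand at chr3:127336054-127338549 (mm9) and its probe at chr3:127337805-127337864, in the 3′ untranslated region. Total RNA read 6.66 (ES), 6.59 (ELA), 9.78 (NPC) and 13.41 (NPC/Neu). Ago-RNA read 6.54, 6.94, 11.83 and 13.84 at the same stages. The 4 arrays of ES and ELA were not well above background, and all 4 later arrays lay above every one of them. From ELA to NPC total RNA rose at least 7.07-fold and from NPC to NPC/Neu 12.3-fold, the latter 18th from the top of 36140 gene names. Over the whole course the rise was at least 101-fold.

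Neurog1, its close relative, moved the same way within a much narrower range. Total RNA was 7.17, 7.20, 7.74 and 8.48 and Ago-RNA was 7.26, 7.23, 8.59 and 8.95 from ES to NPC/Neu, with both ELA arrays not well above background. The rise from ES to NPC/Neu was 2.48-fold in total RNA and 3.21-fold in Ago-RNA. Over the 8 arrays Neurog1 and Neurog2 correlated at r = 0.98, a description over arrays that share slide and normalization.

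Atoh1, the factor of cerebellar granule neuron precursors and inner ear hair cells, was transient. The gene lies at chr6:64679140-64681227 (mm9, plus strand) and its probe at chr6:64681161-64681220, close to the end of the transcript. Total RNA read 6.69 (ES), 6.82 (ELA), 11.24 (NPC) and 7.29 (NPC/Neu). Ago-RNA read 6.96, 7.24, 12.50 and 7.97. Both NPC arrays stood above all 6 others. The rise into NPC was at least 19.4-fold in total RNA and 38.5-fold in Ago-RNA. The following fall was 15.4-fold and 23.1-fold, and in total RNA it was the 9th strongest fall among 36140 gene names. NPC/Neu total RNA remained well above background, 1.47-fold or more over ES.

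The NeuroD factors, which act downstream of the neurogenins in differentiating neurons, had 4 different courses. Neurod1 was measured on all 8 arrays by both probes. Its untranslated-region probe (chr2:79293621-79293680, mm9, minus strand) read 9.09, 8.79, 7.40 and 9.02 in total RNA and its coding probe (chr2:79294309-79294368) read 9.42, 9.06, 7.86 and 9.20. Both therefore had their lowest total RNA in NPC, with falls of 2.63-fold and 2.30-fold from ELA and rises of 3.08-fold and 2.53-fold into NPC/Neu. The Ago-RNA arrays gave 9.71, 9.97, 9.43 and 10.50 for the first probe and 10.22, 10.55, 9.70 and 10.45 for the second. NPC/Neu total RNA differed from ES by -0.15 (log2, mean of the probes). The untranslated-region probe gave -0.07 and the coding probe -0.22, beside an SD of 0.15 for a single spot. Since both probes traced the same dip, the coding probe is shown, as the bases that were read for Neurod1:

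Neurod1 coding probe: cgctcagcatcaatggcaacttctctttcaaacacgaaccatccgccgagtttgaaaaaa

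Neurod1 is also a factor of pancreatic endocrine cells. Of 4 pancreatic endocrine markers, Gcg and Pdx1 were not well above background on any total RNA array, and the summed linear signal of the list was 1036.3, 842.2, 882.9 and 1270.6. The part of other cell types in the Neurod1 signal was not tested.

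Neurod2, a factor of maturing cortical neurons, read 6.85, 7.99, 7.40 and 10.50 in total RNA and 6.55, 8.03, 7.56 and 9.82 in Ago-RNA. ES was not well above background in either, ELA was at least 2.20-fold higher in total RNA, and the rise into NPC/Neu was 8.56-fold. Neurod4, an early target of the neurogenins, was higher at each stage than at the one before. It gave 5.95, 6.84, 7.59 and 8.91 in total RNA, of which ES and ELA were not well above background, and 6.10, 7.74, 7.78 and 8.13 in Ago-RNA. The last step was 2.50-fold in total RNA, larger than 1.27-fold in Ago-RNA. Neurod6, a marker of pyramidal neurons, was at the edge of detection. It was well above background on 1 of 8 arrays (NPC/Neu total RNA, 7.00), with 6.13, 6.35 and 6.28 in the earlier total RNA and 6.11 to 6.74 in Ago-RNA.

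Olig2, the factor of motor neuron and oligodendrocyte progenitors, read 6.48, 7.00, 7.75 and 9.31 in total RNA, with ES and ELA not well above background. Ago-RNA read 6.45, 8.20, 8.41 and 9.20, with ES alone not well above background. Total RNA rose 2.94-fold from NPC to NPC/Neu and at least 5.92-fold from ES. Among 8 genes of the Olig2 domain and lineage, 3 rose and 1 fell from ES to NPC/Neu, against 11.3% of all gene names either way. Nkx6-1, a homeobox partner of the ventral progenitor domain, rose by 3.12 (log2) and Isl1, a motor neuron homeobox gene, by 1.28, while Lhx3 fell by 1.61. Mnx1, the motor neuron homeobox gene, was not well above background on any total RNA array. Of 4 oligodendrocyte markers all were detected in every stage, with a summed signal of 1850.6, 2456.6, 8106.7 and 3012.4 that was highest in NPC.

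Hes6 was abundant throughout and highest in NPC/Neu. Total RNA read 13.70, 13.97, 14.25 and 15.65 and Ago-RNA 14.08, 14.73, 15.22 and 16.33, and each stage lay above the one before on both kinds of array. The steps into ELA and into NPC were 1.20-fold and 1.21-fold in total RNA. Each was under 2 spot SDs taken over all repeat-printed probes, dim ones included, and no SD was taken for bright probes alone. The step into NPC/Neu was 2.63-fold.

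Counted together, the 9 genes moved mostly at the last transition. From ES to ELA total RNA of 1 gene (Neurod2) was up by log2 1 or more and 0 were down, against 3.07% and 3.12% of all gene names. From ELA to NPC 2 were up (Neurog2 and Atoh1) and 1 was down (Neurod1), against 7.16% and 6.65%. From NPC to NPC/Neu 6 were up (Neurog2, Neurod1, Neurod2, Neurod4, Olig2 and Hes6) and 1 was down (Atoh1), against 3.66% and 2.7%. The median change of the 9 genes at that step was 1.40 (log2), where the median of all gene names was -0.02. From ES to NPC/Neu 6 were up and 0 were down, against 11.3% in either direction. The first of these counts grows to 4 genes, and the second to 5, with the scanner's processed signal, in which dim values are not raised by an offset. Requiring every array compared to be well above background took them from 1 to 0 and from 2 to 0, and the count from ES to NPC/Neu from 6 to 2 (Neurog1 and Hes6).

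**Figure D2:**
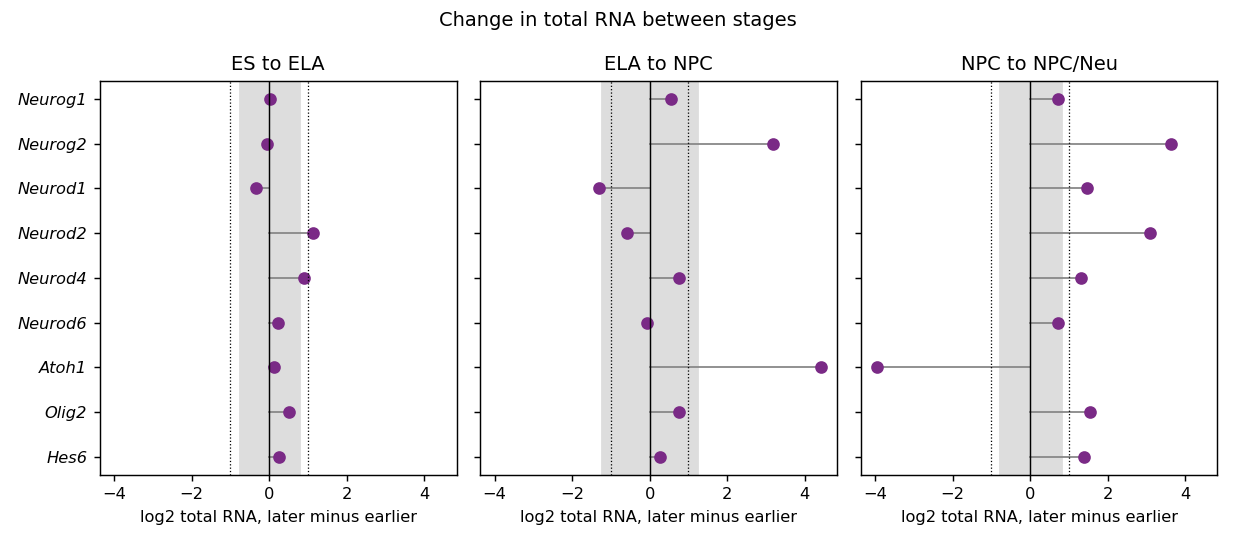
Change in log2 total RNA (x axis, later minus earlier stage) of each gene at the 3 transitions, with the 5th to 95th percentile of all gene names in gray and dotted lines at 1 and -1. At NPC to NPC/Neu 6 points lie beyond 1, and Atoh1 lies at -3.95.

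E-boxes in the promoters are shown because the factors bind this motif. RefSeq (GRCm38.p6) promoters, from 250 bases before to 50 bases after each start, were held for all 9 genes, 11 in all. Searched on both strands, CANNTG occurred in 7 of the 11 and in 72.3% of all 32851 promoters. CAGCTG, one of its forms, occurred in 3 of the 11 (both Hes6 promoters and 1 of Neurod4) and in 16.3% of all. The form CAGATG, with its complement CATCTG, occurred in 1 of the 11 (Neurod2) and in 17.2%. The promoter of Neurod2 and 1 of the 2 promoters of Hes6, genes which both rose into NPC/Neu, held 3 matches of CANNTG each (in capitals below). The other Hes6 promoter held 1, and that of Neurog2, with the largest rise, held none. A match is a description of letters and not a bound site.

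Neurog2 chr3:127632886-127633185, plus strand: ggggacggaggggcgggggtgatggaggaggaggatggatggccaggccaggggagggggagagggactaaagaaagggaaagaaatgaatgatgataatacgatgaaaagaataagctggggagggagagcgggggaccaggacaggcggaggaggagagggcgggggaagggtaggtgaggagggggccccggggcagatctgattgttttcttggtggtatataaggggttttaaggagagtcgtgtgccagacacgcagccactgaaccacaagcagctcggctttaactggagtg
Neurod2 chr11:98329596-98329895, minus strand: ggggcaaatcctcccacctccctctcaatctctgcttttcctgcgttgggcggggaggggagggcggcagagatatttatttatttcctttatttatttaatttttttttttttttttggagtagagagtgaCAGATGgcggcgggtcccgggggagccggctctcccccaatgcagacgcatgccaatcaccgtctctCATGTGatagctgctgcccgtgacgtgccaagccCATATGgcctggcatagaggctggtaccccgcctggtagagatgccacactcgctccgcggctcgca
Hes6 chr1:91413989-91414288, minus strand: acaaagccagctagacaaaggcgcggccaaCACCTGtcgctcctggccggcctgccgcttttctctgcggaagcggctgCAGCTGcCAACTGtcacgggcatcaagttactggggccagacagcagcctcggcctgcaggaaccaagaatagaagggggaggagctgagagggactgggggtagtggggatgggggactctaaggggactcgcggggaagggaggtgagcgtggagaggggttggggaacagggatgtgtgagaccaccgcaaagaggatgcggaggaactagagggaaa

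The next question was how the Ago-RNA signal of each gene stood relative to its total RNA signal. In ES 0 of 9 genes had an E of 1 or more and 0 had an E of -1 or less, against 6.56% and 7.34% of all gene names. In ELA 2 genes reached 1 (Neurod1 and Olig2) and 0 reached -1, against 2.45% and 2.16%. In NPC 3 genes reached 1 (Neurog2, Neurod1 and Atoh1) and 0 reached -1, against 3.6% and 3.91%. In NPC/Neu 1 gene (Neurod1) reached 1 and 0 reached -1, against 7.34% and 7.78%. NPC was the stage at which all 9 genes had an E above 0, as had 52% of all gene names there, although Neurod6 (0.02) was not well above background on either NPC array. The median E of the 9 genes was 0.10, 0.41, 0.85 and 0.44 from ES to NPC/Neu, beside medians of all gene names between 0.00 and 0.03. With the processed signal quantile normalized the medians of the 9 were 0.18, 1.22, 1.05 and 0.41, and ELA was then the highest stage. With the processed signal scaled to its 75th percentile, E in NPC turned to -0.17 for Neurod2 and -0.04 for Neurod4.

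As processed here, Neurog2 in NPC had the highest E of the 9 genes. Its E went from -0.12 (ES) and 0.35 (ELA) to 2.05 (NPC) and 0.44 (NPC/Neu), where the first pair was read from arrays not well above background. In NPC the value was 83rd from the top of 36101 gene names. Ago-RNA thus stood 2.05 (log2) above total RNA at the stage where the mRNA first appeared, and 0.44 above it after a further 12.3-fold rise of total RNA. That order depends on the setting: Neurod1 in NPC reached 2.15 against 2.10 with an offset of 16 and 2.61 against 2.14 with the processed signal quantile normalized, where Olig2 in ELA reached 2.82. Neurod1 was enriched at every stage, with E of 0.71, 1.33, 1.93 and 1.36 as the mean of its probes. Its highest E fell in NPC, where its total RNA was lowest, and E subtracts total RNA by definition. Ago-RNA of Neurod1 was also lowest in NPC, at 9.56 as the mean of its probes. Atoh1 had E of 0.27, 0.41, 1.26 and 0.68, with ES and ELA total RNA not well above background. Its E was highest at its peak in this setting, but with the processed signal quantile normalized it was 1.56, 1.22, 1.28 and 1.13, highest in ES.

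For Olig2 E was -0.02, 1.20, 0.66 and -0.11. The ELA value is a bound, since its total RNA was not well above background there, and Ago-RNA was at least 2.30-fold above it. Neurod4 also had its highest E in ELA, at 0.15, 0.90, 0.19 and -0.78, and Ago-RNA in ELA was at least 1.71-fold above total RNA. Hes6 had E of 0.38, 0.76, 0.97 and 0.69, and Neurog1 had 0.10, 0.03, 0.85 and 0.47. Neurod2 stayed near 0 in ELA (0.04) and NPC (0.16) and was at -0.29 in ES and -0.68 in NPC/Neu. Neurod6, detected on a single array, ran from -0.26 to 0.06.

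**Figure D3:**
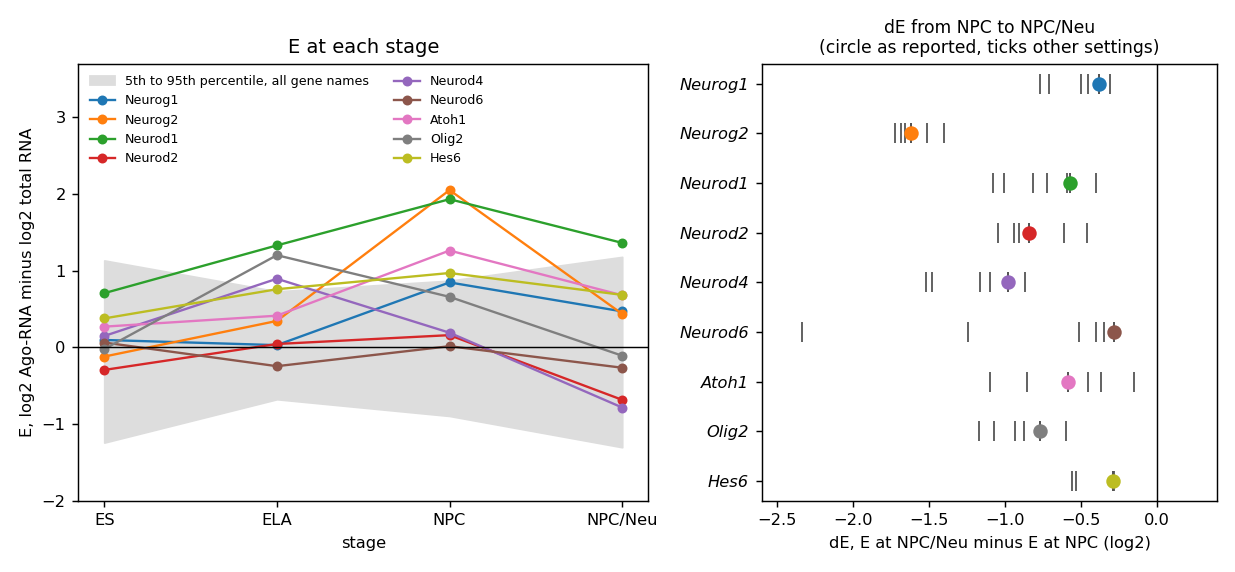
Left, E (log2 Ago-RNA minus log2 total RNA) of each gene at the 4 stages, with the 5th to 95th percentile of all gene names in gray. Right, dE from NPC to NPC/Neu (x axis, log2) of each gene, as reported (circle) and under the other processing settings (ticks), all of which lie below 0.

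In all 9 genes E was lower in NPC/Neu than in NPC, whereas 48.3% of all gene names had a dE below 0. The smaller values were -0.28 (Neurod6), -0.29 (Hes6), -0.38 (Neurog1), -0.57 (Neurod1) and -0.58 (Atoh1). The larger were -0.77 (Olig2), -0.84 (Neurod2), -0.98 (Neurod4) and -1.61 (Neurog2). Neurod6 and Neurog1 lay within 2 spot SDs of dim probes (SD 0.24). Hes6 lay within 2 SDs of all repeat-printed probes (SD 0.17), but it is bright, and no SD was taken for bright probes alone. The median of the 9 values was -0.58, and that of all gene names was 0.02. The sign of each of the 9 values was the same under every alternative setting that gave a value. For a gene with 1 probe, the brightest-probe setting repeats the reported value, and the filters on dim probes repeat it or give none. Total RNA was higher in NPC/Neu than in NPC in 8 of the 9 genes. Because dE subtracts that change from the change in Ago-RNA, a rise in total RNA tends to lower dE by construction. Atoh1, whose total RNA fell 15.4-fold, had a dE whose size depended on the setting. It was -0.37 with no offset, -0.15 with the processed signal quantile normalized and -1.10 with separate quantile normalization. The cause of the lower E was not tested.

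By the size of dE, 0 genes passed 1.5 and 0 passed -1.5 from ES to ELA, against 1.57% and 0.986% of gene names. From ELA to NPC Neurog2 alone passed 1.5, with a dE of 1.71, and 0 passed -1.5, against 0.434% and 0.759%. Its dE there was 1.47 with no offset, 0.98 with the processed signal at its 75th percentile and 0.57 with that signal quantile normalized, all under the limit. From NPC to NPC/Neu 0 passed 1.5 and Neurog2 alone passed -1.5, against 0.275% and 0.835%. An mRNA counted as released when its Ago-RNA exceeded a detection threshold (7.81 to 7.83) and E went from 2 or more to 0.5 or less with a dE of -1.5 or below, and as loaded for the opposite course. By these rules 0 genes were released and 0 loaded from ES to ELA, against 0.278% and 0.189%. From ELA to NPC 0 were released and Neurog2 was loaded, against 0.131% and 0.0445%. From NPC to NPC/Neu Neurog2 was released and 0 were loaded, against 0.0444% and 0.0555%.

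Both calls sat close to a limit of the rules. E of Neurog2 in NPC was 2.05 to 2.42 under all settings, above the limit of 2. Its E in NPC/Neu was 0.44 as reported, against the limit of 0.5, and 0.90 with separate quantile normalization of the Ago-RNA and of the total RNA arrays, which ended the release call. With an offset of 16, E in ELA was 0.50 to 2 decimals, just past the limit, and with no offset or with the processed signal it was 0.65 to 1.57, which ended the loading call. Neither ELA array of Neurog2 was well above background, so that the loading call starts from an undetected level. The dE of Neurog2 from NPC to NPC/Neu was past -1.5 under 7 of 8 alternatives. Of these, the 2 filters on dim probes and the brightest-probe setting only repeat the reported value. Neurog2 has 1 probe, well above background on each array compared there. The dE was -1.40 with the processed signal at its 75th percentile, which ended that call.

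Matches to microRNA seeds were searched because Ago finds its targets through bases 2 to 8 of the microRNA. The RefSeq table held mature miR-291a-3p, of a cluster typical of ES cells and with the same seed as the miR-302 family, let-7a-5p, which appears on differentiation, and miR-9-5p, a neural microRNA. Seeds are in capitals.

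miR-291a-3p: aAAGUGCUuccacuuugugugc
let-7a-5p: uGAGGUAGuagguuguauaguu
miR-9-5p: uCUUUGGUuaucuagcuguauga

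The 3′ untranslated regions of the 9 genes were 575 to 2258 bases long (longest GENCODE transcript of each, mm9), where the median of 19915 genes was 893. The match to miR-291a-3p, AGCACTT, occurred 5 times in 4 of the 9 genes (Neurod1, Neurod4, Neurod6 and Olig2) and in 13.4% of all genes. No match to let-7a-5p or miR-9-5p occurred in any of the 9, where 8.81% and 11.4% of all genes had one. The 5 sites are shown with the match in capitals and positions counted from 1 at the first base of the 3′ untranslated region.

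Neurod1, 624 to 630: ttgcgttgccttAGCACTTctttcttc
Neurod4, 1565 to 1571: ccatcttattgcAGCACTTactctgct
Neurod6, 706 to 712: aaaaaaaatattAGCACTTgttttgta
Olig2, 530 to 536: gtgggtatcagaAGCACTTagggtcct
Olig2, 664 to 670: gacgcttaaaatAGCACTTgtggaatg

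Neurog1, Neurog2, Neurod2, Atoh1 and Hes6 held none of the 3 matches. E in ELA and NPC was 0.03 and 0.85 for Neurog1, 0.35 and 2.05 for Neurog2 and 0.04 and 0.16 for Neurod2. It was 0.41 and 1.26 for Atoh1 and 0.76 and 0.97 for Hes6. Among the genes with a match, E at these stages was 1.33 and 1.93 for Neurod1, 1.20 and 0.66 for Olig2, 0.90 and 0.19 for Neurod4 and -0.24 and 0.02 for Neurod6. Of the 4 genes with a match, E in ES was 0.71 for Neurod1, 0.15 for Neurod4, 0.06 for Neurod6 and -0.02 for Olig2. Neurod4, Neurod6 and Olig2 were not well above background on either ES array. Levels of the microRNAs were not analysed here, and a match says only that these letters are present.

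The partners and opponents of the proneural factors moved mainly from ELA to NPC. Of 7 E protein and Id genes, 6 rose by log2 1 or more at that step and 0 fell, against 7.16% and 6.65% of all gene names. Their median change was 2.16, beside -0.01 for all gene names. Among the E proteins, Tcf12 read 10.01, 11.08, 13.09 and 13.08 in total RNA and rose by 3.08 from ES to NPC/Neu. Tcf3 stayed between 11.61 and 12.04. It was matched by the array's gene name alone, and whether its probes read the gene of E12 and E47 was not checked. Id4 had the largest rise of the Id genes from ES to NPC/Neu, 3.75 (log2), and Id1 fell by 2.18. From ES to ELA, before that common rise, 3 of the 7 genes had fallen, against 3.12% of all gene names. Their changes were -3.83 for Id1, -2.87 for Id2 and -1.90 for Id4, whose ELA signal was not well above background. Id1, Id2 and Id3, singled out after their values were seen, were highest in NPC, with 15.26, 15.66 and 16.19, and were lower again in NPC/Neu, with 12.67, 14.83 and 14.46. The stage at which Neurog2 had appeared but not peaked was thus also that of the highest Id1, Id2 and Id3 signal.

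Of 8 Hes and Hey repressors, 5 rose and 1 fell from ES to NPC/Neu, against 11.3% of all gene names either way. Their median change was 1.43. Hes5, the main Notch effector of neural progenitors, rose by 7.22, from 8.97 in ES to 16.28 in NPC and 16.19 in NPC/Neu. Hes3 rose by 1.91 and Hes2 fell by 1.13. Hes1, named for its E after its values were seen, had E of 0.48, 1.21, 2.84 and 1.92, higher in NPC than any of the 9 proneural genes.

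Among 10 other neural bHLH activators 7 rose from ES to NPC/Neu and 0 fell, against 11.3% of all gene names either way. Their median change was 1.48. Nhlh2, a factor of newborn neurons, read 6.29 and 6.32 in ES and ELA, not well above background, then 9.79 and 13.00, a rise of at least 6.26 (log2) over the course. Bhlhe22, a factor of postmitotic neurons, read 6.75 and 6.97 in ES and ELA, not well above background, then 8.18 and 10.83. Olig3, a dorsal progenitor factor singled out after its values were seen, was transient like Atoh1, at 7.11, 6.58, 14.03 and 8.96. Neurog3, the pancreatic neurogenin, went the other way by less than the limit of 1, at 8.01 in ES and 7.23 in NPC/Neu.

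Genes known to lie downstream of proneural factors rose over the course. All 12 were up by log2 1 or more from ES to NPC/Neu, against 11.3% of all gene names. Their median change was 3.66, beside -0.02 for all gene names. At the 3 successive steps 5, 8 and 11 of them were up, against 3.07%, 7.16% and 3.66%. Ebf3, of a family of neuronal differentiation factors, rose by 8.39, and its relative Ebf2, not well above background in ES, by at least 7.29. Dll1, a Notch ligand that neurogenins activate, read 8.16, 9.88, 12.30 and 13.70, and so rose before Neurog2 was detected. Among 5 genes of the Atoh1 lineage, 2 rose and 0 fell from ES to NPC/Neu, against 11.3% of all gene names either way. Lhx9, not well above background in ES, rose by at least 3.88, and went from 8.15 in NPC to 10.62 in NPC/Neu, the step at which Atoh1 fell. Barhl1 rose by 1.21 from ES and read 9.71 and 9.76 at the last 2 stages. Pou4f3, a hair cell factor, was well above background in ES alone, and Gfi1 on no total RNA array.

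**Figure D4:**
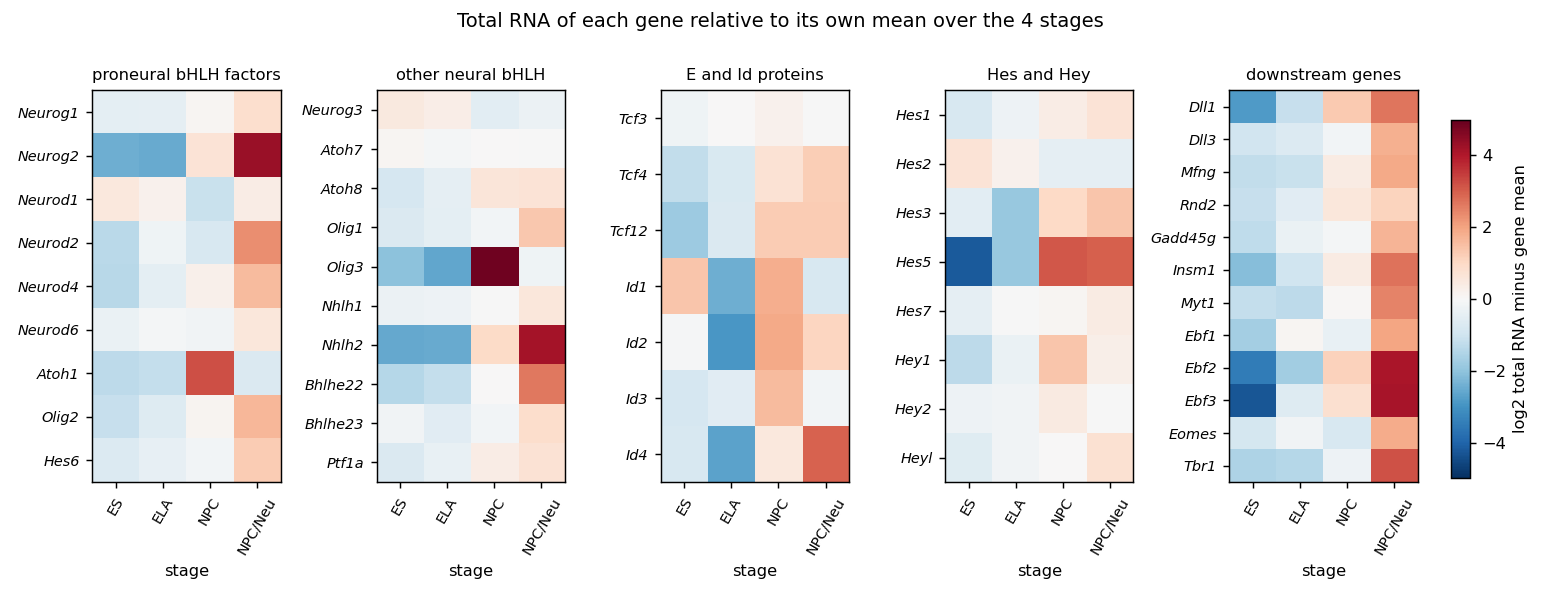
Log2 total RNA of each gene minus its own mean over the 4 stages (color), for the proneural bHLH factors and 4 groups of related genes (rows), by stage (columns). Neurog2, Nhlh2, Ebf2 and Ebf3 are highest in NPC/Neu, Atoh1 and Olig3 in NPC.

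Genes with the most similar course over the 8 arrays were sought among 23108 gene names well above background on at least 4 arrays, as a description with no test. Nearest to Neurog2 were Mab21l1 (r = 0.998), Tmem178 and Nfia, of which Nfia is a glial and neural factor. E of Tmem178 was -0.21, 0.06, 1.17 and 0.52. It comes from the same 8 arrays as r, so its likeness to Neurog2 is no separate finding. Nearest to Atoh1 were Gm266 (r = 0.99), Wnt1, a signal of the dorsal midline and midbrain-hindbrain border, and Ppp1r3c. Wnt1 read 8.40, 8.55, 11.15 and 8.78 in total RNA and 12.51 in NPC Ago-RNA, with E of 1.36 in NPC. Rcan2 was nearest to Neurod2 (r = 0.99), and Ralgds and Epc1 were among the nearest 3 for both Neurod4 and Olig2. Those 2 members correlated with each other at r = 0.97. Neurod1 had no close match within the group, its r with the other 8 genes running from -0.38 to 0.44.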

How the data were processed

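Total RNA and Ago-RNA of 4 stages were hybridised to 1-colour Agilent mouse arrays, 8 arrays in all. The authors deposited scanner files of fluorescence intensity (mean, local background and processed signal per spot), not normalized; the file header names Feature Extraction 10.7.3.1, the submitters' processing notes Feature Extraction 9.1 and limma. From the labels, 50 ng of RNA was labelled per array.

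Mean intensity was corrected for background by normexp (offset 50), spots with outlier flags were left out, and the 8 arrays were brought to a common distribution by quantile normalization on the log2 scale (limma 3.58.1, R 4.3.3). The offset pulls dim values together, so fold changes of dim genes are understated. Spots of a probe, then probes of a gene, were averaged. For the Ago-RNA detection threshold 2 Gaussian components were fitted to each array (mclust 6.1.1), and 3 SD were added to the mean of the dimmer. Where a probe was well above background in only 1 of the conditions compared, the fold is a bound against the higher of its own value and the lowest signal well above background on that array. With 1 array per condition no test was made, and precision is limited by that number. The counting of calls was tested on simulated data.

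Named genes were all members, the strongest movers from ES to NPC/Neu in each list (up to 2 each way) and the 3 closest profiles of each member whose signal spanned at least 2 (log2). Other genes of the lists and all markers named one by one (among them Dll1, Tcf3, Mnx1, Gfi1 and Gata6) were chosen after their values were seen. The members and lists were chosen with earlier results of these data known. Alternatives were offsets of 16 and 0, the scanner's processed signal (75th percentile or quantile scaling), separate quantile normalization, 2 filters on dim probes, and the brightest probe of a gene. One gene of the list of other neural bHLH activators is not reported here.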

Additional observations from a re-analysis of the deposited data

How the results depend on the processing

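Of 218 counts of genes recomputed under 8 alternatives, 180 stayed within 1.5 times the count reported and 38 moved. For genes with 1 probe the brightest-probe setting could not differ, and the 2 filters could only repeat or drop a value. Part of the 180 was therefore fixed in advance. No called value of a single gene changed sign. Counts that moved are given with the reported count first. With an offset of 16, genes up from ES to ELA went from 1 to 2, a dE of 1.5 or more there from 0 to 1, and loading from ELA to NPC from 1 to 0. With no offset, genes up from ES to ELA went from 1 to 2 and from ELA to NPC from 2 to 4, a dE of 1.5 or more went from 0 to 1 and then from 1 to 0 at these steps, and loading from ELA to NPC from 1 to 0. With the processed signal at the 75th percentile, genes up went from 1 to 4 (ES to ELA) and from 2 to 5 (ELA to NPC), and genes down from 1 to 2 (ELA to NPC). An E of -1 or less went from 0 to 1 in ES and from 0 to 2 in NPC/Neu, and an E of 1 or more in ELA from 2 to 4. A dE of 1.5 or more went from 0 to 3 (ES to ELA) and from 1 to 0 (ELA to NPC), and a dE of -1.5 or less from 0 to 1 (ELA to NPC) and from 1 to 2 (NPC to NPC/Neu; these were Neurod4 and Neurod6, not Neurog2). This scaling moved the median E of all gene names by -0.60 in ES, -0.31 in ELA and -0.38 in NPC/Neu, and the median change in total RNA from ELA to NPC by -0.39; the release and loading rules were not run on it, as their threshold is on another scale. With the processed signal quantile normalized, genes up went from 1 to 4 and from 2 to 5 and genes down from 1 to 2 at the same steps. An E of 1 or more went from 0 to 1 in ES, 2 to 5 in ELA, 3 to 5 in NPC and 1 to 2 in NPC/Neu, and an E of -1 or less from 0 to 1 in ES and 0 to 2 in NPC/Neu. A dE of 1.5 or more went from 0 to 2 and then from 1 to 0, a dE of -1.5 or less from ELA to NPC from 0 to 1, and loading there from 1 to 0. Separate quantile normalization took release from NPC to NPC/Neu from 1 to 0. Requiring every array compared to be well above background left 2 to 3 genes at the earlier steps, with genes up going from 1 to 0, 2 to 0 and, from ES to NPC/Neu, 6 to 2, an E of 1 or more in ELA from 2 to 1, and a dE of 1.5 or more and loading from ELA to NPC from 1 to 0; this follows from the fewer genes left. The cause of the other moves was not tested. No paired analysis was possible because the labels number no replicates and each condition is 1 array. Signal near background limits every value of Neurod6 and the ES and ELA values of Neurog2, Atoh1, Neurod4 and Olig2.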
